A study of Mus musculus with 2 samples.

Results

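The NSPCs in S phase are the cells that the authors' per-cell table places in S. In that scheme a cell is called S when its S.Score, a score for S phase genes, is positive and above its G2M.Score, a score for G2 and mitosis genes, G2M when G2M.Score is positive and the greater, and G1 when both are negative. There were 77 such cells among 304, 41 on plate 1 and 36 on plate 2, and 0 other cells met both conditions. The cells are cultured neural stem/progenitor cells (NSPCs) from the subventricular zone of C57/Bl6 male mice of 6 to 8 weeks, passaged at least 5 times, kept proliferating with EGF and FGF-2 and made into a stable line with a retrovirus for PLIN2-GFP, a fusion of GFP with perilipin 2, the coat protein of lipid droplets. Cells from the lowest 25% of GFP signal (low PLIN2-GFP) and from the highest 25% (high PLIN2-GFP) went singly into 384-well plates for SORT-seq, in which polyadenylated RNA is primed and each molecule carries a unique molecular identifier (UMI). Every cell in each group carries the reporter, no group received a treatment, and the reporter itself contains *Plin2* sequence. Both plates hold the same line, so the spread between them does not measure variation between animals or lines.

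S phase is the part of the cell cycle in which the genome is copied once. Helicase complexes of MCM proteins unwind origins, clamp loaders place the sliding clamp PCNA, polymerases and a ligase make the new strands, and enzymes of nucleotide synthesis supply the building blocks. The E2F factors with their DP partners are known to activate many of these genes at the passage from G1 into S, whereas a different group of genes, for mitosis, is switched on towards G2. New DNA is packed with replication-dependent histones, whose mRNAs accumulate in S and mostly end in a stem-loop in place of a poly(A) tail, so that a method primed on poly(A) sees only part of them. In the adult subventricular zone, dividing stem and progenitor cells pass through this phase before they give rise to neuroblasts.

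The median number of UMIs was higher in S cells than in the other cells, with values of 10994 on plate 1 and 15301 on plate 2, against 8290 and 9825 in G1 and 9565 and 12902 in G2M. After thinning to 5000 UMIs per cell, with the loss of 8 S cells and 37 others, the medians of detected genes were 2318.5 and 2337 in S, 2222 and 2192 in G1 and 2284 and 2263 in G2M. Mitochondrially encoded transcripts made up a median of 11.8% and 11.3% of the UMIs in S, 14% and 13.8% in G1 and 11.9% and 11.8% in G2M. Cells were summed per plate and phase, and the 6 sums held between 460184 and 767257 UMIs. Of the 304 cells, 11 had a mitochondrial share of 20% or more, 1 of them in S, although the study states a limit below that. The deposited doublet scores had medians of 0.156 and 0.144 in S, 0.111 and 0.131 in G1 and 0.131 and 0.156 in G2M. Barcodes name wells rather than cells, and 59 of them occurred on both plates. For 7 of these wells the cell was in S on both plates.

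The 4 markers chosen for S cells were highest in S on both plates. They are given as CPM (counts scaled to a common total of 1e+06) of the summed cells, scaled by TMM, as all levels of single genes are unless stated otherwise. *Pcna*, the sliding clamp, stood at 189 CPM in G1, 724 in S and 421 in G2M on plate 1, and at 172, 614 and 377 on plate 2. *Mcm5*, a helicase subunit, stood at 32.9, 251 and 100 CPM, and at 34.8, 173 and 102. *Rrm2*, a subunit of ribonucleotide reductase, stood at 48, 387 and 274 CPM, and at 79.9, 348 and 252. Each of these was highest in S on both plates, and since all belong to the genes behind S.Score, these levels are a description and no test. *Hist1h2ap*, a replication-dependent H2A histone outside the score lists, stood at 143, 2123 and 1242 CPM on plate 1 and at 137, 2119 and 1698 on plate 2. At least 1 UMI of *Mcm5* was counted in 34 of 41 and 34 of 36 S cells, against 18 of 81 and 11 of 51 G1 cells. At 5000 UMIs per cell the shares were 73.5% and 65.7% in S and 13.6% and 4.44% in G1. Of all cells, 8 S cells and 19 others lay within 0.05 of the limit. The S cell nearest to it had an S.Score of 0.0124 and a G2M.Score of -0.333, and the nearest cell outside had 0.0767 and 0.0768. Of the S cells, 21 had a positive G2M.Score as well, and 34 G2M cells had a positive S.Score.

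**Figure D1:**
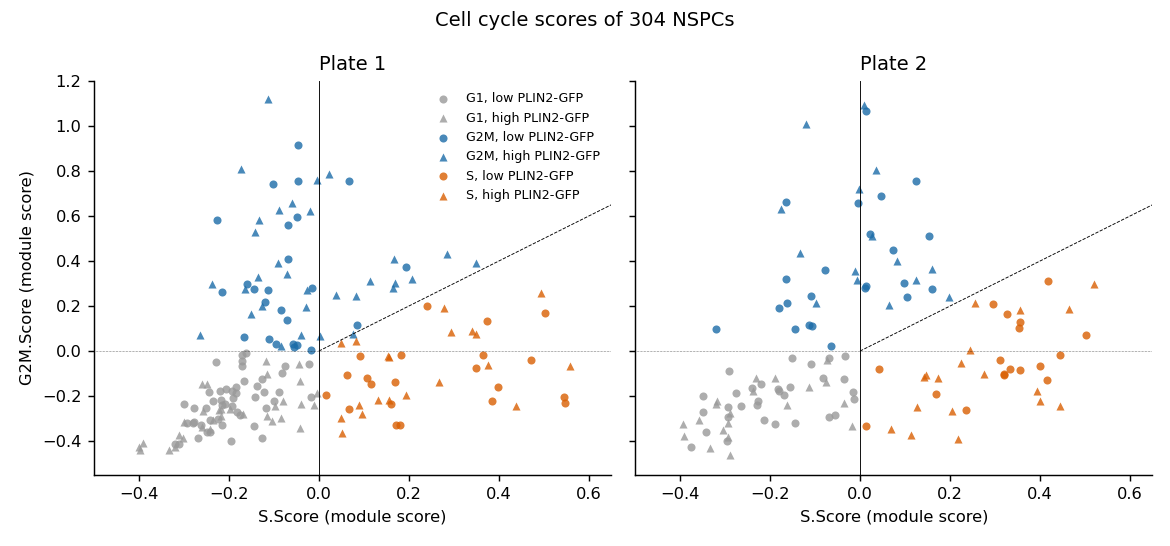
Each point is 1 of the 304 NSPCs, with the deposited S.Score on the x axis and G2M.Score on the y axis (module scores without a unit), 1 panel per plate, coloured by phase and shaped by PLIN2-GFP category. The 77 S cells lie to the right of 0 and below the dashed line of equal scores, 21 of them above a G2M.Score of 0.

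Promoters of genes that were higher in S cells than in G1, or lower than in G2M, are printed here because they hold the motifs that were counted over these gene sets. The windows reach from 250 bases before to 50 bases after the start site (RefSeq, GRCm38.p6) and are written 5′ to 3′ on the strand of the gene. Capitals in the first set mark E2F-type letters, searched on both strands as TTTGGCGC, TTTCCCGC, TTTCGCGC or TTTGCCGC. *Pclaf* encodes a PCNA-associated factor, *Ncapg2* a condensin subunit and *Mcm3* a helicase subunit.
Pclaf, chr9:65890073-65890372, plus strand: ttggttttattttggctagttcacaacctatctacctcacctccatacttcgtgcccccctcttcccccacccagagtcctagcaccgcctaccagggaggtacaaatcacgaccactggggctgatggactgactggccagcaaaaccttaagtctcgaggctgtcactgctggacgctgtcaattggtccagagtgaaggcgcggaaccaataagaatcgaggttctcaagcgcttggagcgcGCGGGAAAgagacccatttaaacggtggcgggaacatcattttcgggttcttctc
Ncapg2, chr12:116405186-116405485, plus strand: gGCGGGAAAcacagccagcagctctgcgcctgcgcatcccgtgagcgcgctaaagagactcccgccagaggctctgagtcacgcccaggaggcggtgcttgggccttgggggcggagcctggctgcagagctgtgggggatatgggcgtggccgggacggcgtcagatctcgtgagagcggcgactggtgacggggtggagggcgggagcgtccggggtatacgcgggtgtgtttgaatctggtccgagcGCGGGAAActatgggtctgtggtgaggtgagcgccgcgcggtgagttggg
Mcm3, chr1:20820263-20820562, minus strand: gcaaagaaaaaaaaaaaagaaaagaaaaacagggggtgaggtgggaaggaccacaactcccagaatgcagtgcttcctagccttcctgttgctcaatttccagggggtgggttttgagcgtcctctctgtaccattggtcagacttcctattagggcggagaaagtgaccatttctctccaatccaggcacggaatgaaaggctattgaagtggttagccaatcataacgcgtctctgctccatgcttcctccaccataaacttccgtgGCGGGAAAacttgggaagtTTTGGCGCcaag

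In the second set, of genes lower in S cells than in G2M, capitals mark the CHR-type letters TTTGAA on either strand. *Plk1* encodes a mitotic kinase, *Aspm* a spindle pole protein and *Prc1* a protein of the spindle midzone.
Plk1, chr7:122159185-122159484, plus strand: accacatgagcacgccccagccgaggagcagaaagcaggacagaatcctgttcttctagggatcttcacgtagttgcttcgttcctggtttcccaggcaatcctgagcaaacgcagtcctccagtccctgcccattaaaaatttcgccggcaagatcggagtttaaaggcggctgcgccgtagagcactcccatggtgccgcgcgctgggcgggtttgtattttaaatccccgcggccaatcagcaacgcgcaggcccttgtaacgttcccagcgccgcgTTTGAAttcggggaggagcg
Aspm, chr1:139454523-139454822, plus strand: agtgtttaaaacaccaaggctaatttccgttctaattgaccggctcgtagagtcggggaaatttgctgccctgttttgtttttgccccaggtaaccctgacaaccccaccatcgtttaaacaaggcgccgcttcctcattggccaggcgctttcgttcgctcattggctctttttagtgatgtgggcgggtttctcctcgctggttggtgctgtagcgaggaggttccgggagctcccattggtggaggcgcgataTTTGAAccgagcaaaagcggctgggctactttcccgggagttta
Prc1, chr7:80294201-80294500, plus strand: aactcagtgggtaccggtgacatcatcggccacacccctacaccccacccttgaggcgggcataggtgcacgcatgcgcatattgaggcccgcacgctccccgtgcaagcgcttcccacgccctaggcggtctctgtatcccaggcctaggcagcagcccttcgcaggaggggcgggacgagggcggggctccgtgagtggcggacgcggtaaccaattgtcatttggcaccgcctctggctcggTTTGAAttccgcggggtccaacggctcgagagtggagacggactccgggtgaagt

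The *Pclaf* match begins 5 bases before the start site by the window's count and the *Aspm* match 6 bases after it. E2F-type letters were found in at least 1 promoter of 72 of the 405 genes that were higher in S than in G1 and had a promoter in the table, which is 17.8%. They were found in 3.29% of 304 genes lower in S than in G1, in 5.34% of the 5934 tested genes with a promoter, and in 2.6% of all 27025 genes of the table. For replication machinery genes the share was 34.3% (12 of 35). CHR-type letters were found in 46 of 131 genes lower in S than in G2M (35.1%), against 13.5% of the tested genes and 20.2% of all. The CCAAT-type letters ATTGG stood in 72.5% of these 131, 43.2% of the tested genes and 41.1% of all, and the 2 motifs stood together in 28.2%, 6.79% and 8.97%. The promoters of *Dek*, *Tk1*, *Slfn9*, *Fbxo5* and *E2f1* held none of the E2F-type spellings, which says only that these letters are absent from the window. The sets were chosen by the contrasts, a match is not a binding site, and the shares were not tested.

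To ask how S cells differ from the other phases, S sums were compared with the G1 and with the G2M sums by edgeR's quasi-likelihood test, which had the plate as a block, and p-values were adjusted by Benjamini-Hochberg over 7650 genes. Genes with an adjusted p under 0.1 are called. The 100 tested score genes that set the phase are left out of all counts of calls, which leaves 7550. Against G1, 497 genes (6.58%) were higher in S and 397 (5.26%) were lower, together 11.8%, and 892 of these 894 had the same direction on both plates. Against G2M, 130 (1.72%) were higher in S and 166 (2.2%) lower, together 3.92%, all 296 in the same direction on both plates. Agreement between the plates is only a description, since the genes were called on these same 2 plates. Both comparisons use the same S sums and are therefore given side by side, without an overlap. With library size in place of TMM the splits were 598 higher and 242 lower than G1, and 167 higher and 138 lower than G2M. With DESeq2 114 and 35 genes were called against G1, and 12 and 30 against G2M. The edgeR fit pools the spread over genes and has 2 residual degrees of freedom among the sums. With the plate as a block, its p-values measure only how far the phase differences vary between these 2 plates, counting error included. After thinning to 5000 UMIs per cell 321 and 117 genes were called, without the plate block 370 and 119, and with any 1 sum left out 200 to 415 and 75 to 141. Members of a list count as tested only if they passed the filter on low counts, so the counts describe those members alone. A gene near the floor in 1 phase can pass that filter through its sums in another phase, so counts and medians lean towards such genes. For comparison, the median log2 fold change over all 7550 genes was -0.03 against G1 and 0.0019 against G2M. The lists and their members were chosen with earlier results of these data known, so counts over them are a description.

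Genes of the replication machinery were higher in S cells than in G1 for the most part. Of 46 members in the table, 40 were tested, 29 were higher than in G1 and 0 lower, with a median log2 fold change of 1.44. Against G2M, 7 were higher, *Mcm3*, *Lig1*, *Rfc1*, *Rfc3*, *Atad5*, *Dna2* and *Tonsl*, and *Dbf4* was lower, with a median of 0.38. *Mcm3* stood at 26.1 CPM in G1, 134 in S and 52.7 in G2M on plate 1 and at 30.7, 148 and 59 on plate 2. Its log2 fold change was 2.31 ± 0.26 (SE) against G1 (adjusted p = 2.03e-07) and 1.33 ± 0.23 against G2M (adjusted p = 0.000244). Its S sums lay above all others, which is only a description, since it was among the smallest p in these sums. *Lig1*, the ligase that joins Okazaki fragments, stood at 35.7, 167 and 105 CPM and at 36.9, 144 and 60.9. It was higher in S by 2.14 ± 0.25 and 0.90 ± 0.21 on the log2 scale. The clamp loader subunit *Rfc3* stood at 54.9, 114 and 52.7 CPM and at 24.6, 110 and 49.1, higher than in G1 by 1.45 ± 0.27 and than in G2M by 1.15 ± 0.26.

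For other replication genes the comparison with G2M gave another result than that with G1. *Pclaf*, whose promoter is printed above, stood at 45.3, 319 and 301 CPM on plate 1 and at 59.4, 299 and 267 on plate 2, higher than in G1 by 2.59 ± 0.19 (adjusted p = 9.29e-11), while the difference from G2M was 0.12 ± 0.14 (adjusted p = 0.79). *Dbf4*, the activating subunit of the CDC7 kinase that fires origins, was between the phases, at 23.3, 48.4 and 158 CPM and at 24.6, 54.9 and 167. It rose by 1.10 ± 0.32 over G1 and was lower than in G2M, with a log2 fold change of -1.65 ± 0.22. The summed CPM of the list, without TMM, was 2.17 and 2.23 times that of G1 and 1.16 and 1.25 times that of G2M on plates 1 and 2.

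Genes that regulate the entry into S were tested next. Of 27 measured, 23 passed the filter on low counts, and of these 13 were higher in S than in G1 and 0 lower (median 0.94). Against G2M *E2f1*, *E2f2*, *Cdk2*, *Ccnd1* and *Ccnd2* were higher and *Ccna2* and *Cdkn2c* lower (median 0.46, or -0.03 with a minimum of 50 counts in 2 sums). *E2f1*, an activating E2F factor, stood at 13.7, 79.2 and 23.8 CPM in G1, S and G2M on plate 1 and at 8.19, 75.5 and 17.7 on plate 2. It was higher than in G1 by 2.76 ± 0.36 (adjusted p = 4.37e-06) and than in G2M by 1.89 ± 0.33 (adjusted p = 0.000314). Its S sums did not overlap the others, which is only a description, since it was among the smallest p in these sums. *Ccna2*, cyclin A, stood at 8.23, 55 and 168 CPM and at 16.4, 61.8 and 134, higher than in G1 by 2.34 ± 0.39 and lower than in G2M, with -1.36 ± 0.24. *Fbxo5*, an inhibitor of the anaphase-promoting complex, rose by 3.58 ± 0.37 over G1, from 11 to 88 CPM and from 4.10 to 118, with 59.5 and 86.5 in G2M. The D cyclins showed another pattern. *Ccnd1*, which drives passage through G1, stood at 1041, 961 and 564 CPM and at 666, 760 and 442, so that S cells were close to G1 and above G2M by 0.78 ± 0.11 (adjusted p = 9.47e-06). *Ccnd2* stood at 2850, 2255 and 1694 CPM and at 2161, 2218 and 1576, above G2M by 0.46 ± 0.08.

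Enzymes of nucleotide synthesis were higher than in G1 in 12 of 26 tested cases, with 0 lower (median 0.87), and higher than in G2M in 4, among them *Ppat*, *Shmt1* and *Dck*, with 0 lower (median 0.12). *Tk1*, the thymidine kinase of the salvage pathway, stood at 41.2, 200 and 226 CPM and at 77.8, 295 and 297, up by 2.09 ± 0.20 over G1 (adjusted p = 9.68e-09), with a difference of -0.09 ± 0.15 from G2M (adjusted p = 0.858). *Dck*, which phosphorylates deoxycytidine, stood at 115, 183 and 119 CPM and at 109, 254 and 147, with its S sum the highest on each plate. The members that were not called included abundant ones, such as *Paics* of purine synthesis, at 473, 559 and 525 CPM and at 535, 576 and 592.

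Of 34 measured genes of DNA repair and the replication checkpoint, 25 passed the filter on low counts. Of these, 16 were higher than in G1 and 0 lower (median 1.47), and 4 were higher than in G2M and 0 lower (median 0.34). *Brca1*, which acts in homologous recombination, stood at 6.86, 59.4 and 30.6 CPM and at 4.10, 78.9 and 39.3, up by 3.51 ± 0.43 over G1 and by 0.98 ± 0.30 over G2M (adjusted p = 0.0741). *Topbp1*, an activator of the ATR kinase, stood at 78.2, 198 and 153 CPM and at 102, 307 and 200. *Msh6*, of mismatch repair, stood at 35.7, 110 and 71.4 CPM and at 57.3, 166 and 70.8. For these 3 genes, which were called in both comparisons of the same sums, the S sum was the highest of its plate. *Trp53*, at 61.7, 92.4 and 91.8 CPM and at 139, 154 and 126, was not called in either comparison.

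Among genes of chromatin assembly and DNA methylation, 15 of 21 were higher than in G1 and 0 lower (median 0.54), with 1 higher and 2, *Hmgb1* and *Hmgn2*, lower than in G2M. The member higher than in G2M was *Dnmt1*, the methyltransferase that copies DNA methylation to the new strand, at 39.8, 224 and 136 CPM and at 57.3, 196 and 128, with log2 fold changes of 2.15 ± 0.21 (adjusted p = 2.85e-08) and 0.66 ± 0.18 (adjusted p = 0.0318). *Ezh2*, the Polycomb methyltransferase, rose over G1 by 1.61 ± 0.20 and stood at 211 and 228 CPM in S and 202 and 267 in G2M. Of 17 cohesin and condensin genes tested, 11 were higher than in G1 and 0 lower (median 0.66), while against G2M *Smc3* was higher and *Rad21* lower. *Ncapg2* stood at 6.86, 96.8 and 83.3 CPM and at 18.4, 137 and 112, up by 3.27 ± 0.33 over G1. *Rad21*, the cohesin subunit cut at anaphase, stood at 189, 257 and 523 CPM and at 188, 281 and 578, above G1 by 0.50 ± 0.15 and lower than in G2M, with -1.03 ± 0.13.

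**Figure D2:**
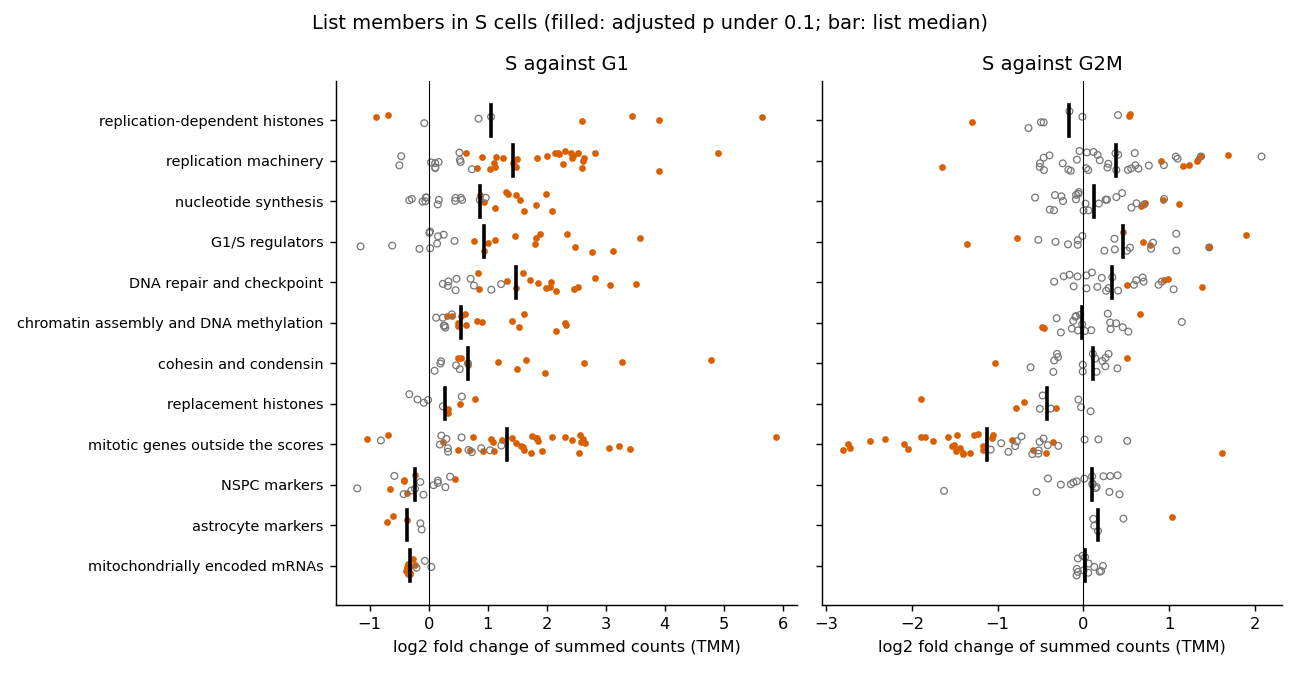
Each point is a tested member of the list at the left, with its log2 fold change of TMM-scaled sums in S against G1 (left panel) and S against G2M (right panel) on the x axis; filled points have an adjusted p under 0.1 and bars mark list medians. Of the replication machinery, 29 of 40 members were higher than in G1, and of the mitotic genes 29 of 46 were lower than in G2M.

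Histones were split into a list of replication-dependent histones and a list of replacement histones. The summed level of the 40 replication-dependent histones, in CPM without TMM, was 614, 3876 and 2686 in G1, S and G2M on plate 1 and 598, 4206 and 3239 on plate 2, that is 6.31 and 7.04 times G1. Of these 40, 9 passed the filter on low counts, 4 of them were higher than in G1 and *H1f2* and *H2bc4* were lower (median 1.06). With no filter on low counts the median was -0.14. Against G2M 2 were higher and 1, *H2aw*, lower, with a median of -0.16 that turned positive with a minimum of 50 counts in 2 sums. Most of the summed level came from *Hist1h2ap* (chr13:21833026-21833507, GRCm38) and *Hist1h2ao* (chr13:21810465-21810944), near-identical H2A genes between which Salmon divides reads, so that the level of either is uncertain. *Hist1h2ap* was higher than in G1 by 3.90 ± 0.12 (adjusted p = 1.25e-19) and than in G2M by 0.54 ± 0.09 (adjusted p = 0.000314). *Hist1h2ao*, at 140, 1408 and 998 CPM and at 137, 1664 and 1126, gave 3.45 ± 0.12 and 0.53 ± 0.09. *H2ac15* had 1 and 0 counts in G1, 26 and 28 in S and 19 and 24 in G2M.

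The genes listed as replacement histones showed 4 of 10 members higher than in G1 (median 0.28) and 4 lower than in G2M (median -0.43). *H2ax*, the variant phosphorylated at DNA breaks, stood at 63.1, 161 and 530 CPM and at 131, 165 and 670, above G1 by 0.79 ± 0.21 and lower than in G2M, with -1.90 ± 0.16 (adjusted p = 1.08e-09). *H2az1* stood at 852, 1291 and 1968 CPM and at 1424, 1486 and 2520, lower than in G2M with -0.69 ± 0.09. *H3f3a*, at 1200, 1166 and 1188 CPM and at 1442, 1143 and 1215, was called in neither comparison.

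Genes of mitosis outside the score lists were compared in the same way. Of 46 tested, 32 were higher than in G1 and 2 lower (median 1.33), while 29 were lower than in G2M and 1, *Mybl2*, higher (median -1.13). *Plk1* stood at 6.86, 44 and 274 CPM and at 20.5, 32.6 and 230, with log2 fold changes of 1.61 ± 0.44 against G1 and -2.73 ± 0.24 against G2M (adjusted p = 4.36e-09). *Aspm*, at 22, 52.8 and 202 CPM and at 16.4, 44.6 and 279, gave 1.25 ± 0.36 and -2.31 ± 0.22. *Prc1*, at 74.1, 172 and 486 CPM and at 106, 211 and 525, gave 1.11 ± 0.18 and -1.40 ± 0.14. The 3 genes thus stood in S between the other phases on both plates.

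*Ccnb1*, cyclin B, stood at 63.1, 81.4 and 622 CPM and at 61.4, 103 and 676. The difference from G1 was 0.56 ± 0.22 (adjusted p = 0.128), and that from G2M was -2.80 ± 0.15 (adjusted p = 1.56e-13). *Arl6ip1*, which shapes the endoplasmic reticulum, stood at 232, 134 and 420 CPM and at 205, 78.9 and 336, lower in S than in G1 with -1.05 ± 0.18 (adjusted p = 0.000198) and than in G2M with -1.85 ± 0.17. *Mybl2*, a transcription factor of the MYB family, had 4, 11 and 4 counts in G1, S and G2M on plate 1 and 3, 33 and 10 on plate 2. Besides these, the genes most clearly lower than in G2M by the smallest p were *H2ax*, *Ubald2*, *Rad21*, *Trim59* and *Dynll1*. *Trim59*, a ubiquitin ligase, stood at 16.5, 48.4 and 177 CPM and at 24.6, 78.9 and 228, and *Dynll1*, a dynein light chain, at 702, 653 and 1081 CPM and at 817, 640 and 1130. *Ubald2* stood at 67.2, 48.4 and 270 CPM and at 96.3, 72.1 and 291.

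Several genes outside the lists were among those with the smallest p in S cells. *Slfn9* (chr11:82978390-82991830), a member of the Schlafen family, stood at 6.86, 101 and 20.4 CPM on plate 1 and at 8.19, 115 and 17.7 on plate 2. It was higher than in G1 by 3.82 ± 0.36 (adjusted p = 1.31e-08) and than in G2M by 2.48 ± 0.31 (adjusted p = 2.03e-06). *Slfn9* was picked by p in these same sums, so the distance of its S sums from the others is only a description. *Dek*, a chromatin protein, stood at 123, 455 and 420 CPM and at 160, 504 and 482, above G1 by 1.77 ± 0.14 (adjusted p = 4.55e-10). *Apln*, the ligand of the apelin receptor, differed between the plates, at 140, 143 and 47.6 CPM and at 77.8, 225 and 53.1. It was higher than in G2M by 1.89 ± 0.27, and its S sum lay above G1 on plate 2 by more than on plate 1. *Vav3*, a guanine nucleotide exchange factor, stood at 321, 277 and 144 CPM and at 297, 300 and 153, above G2M by 0.96 ± 0.16, with S close to G1.

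**Figure D3:**
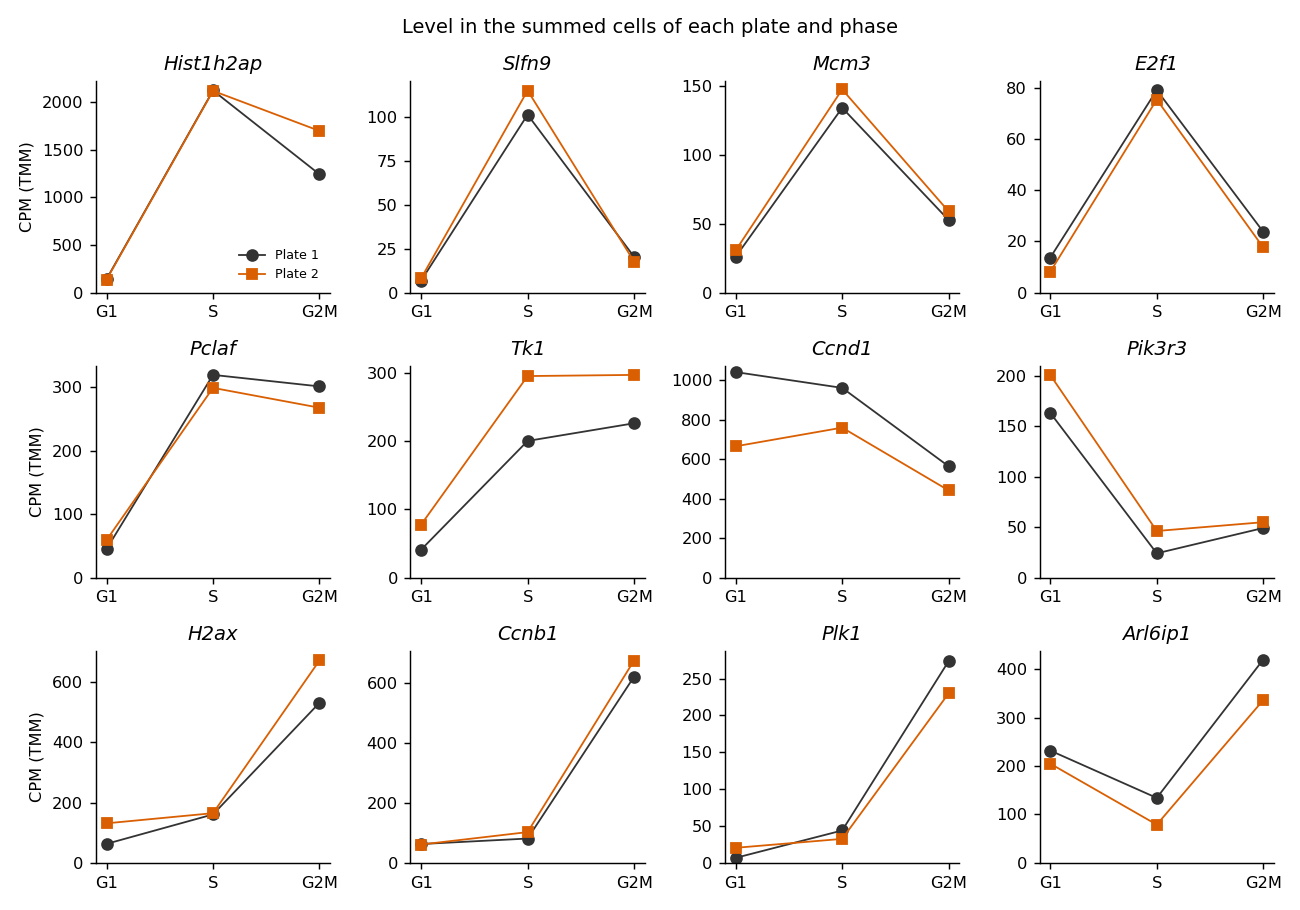
TMM-scaled CPM (linear y axes from 0) of 12 genes in the summed cells of G1, S and G2M, 1 line per plate; no error is drawn because each point is 1 sum. *Slfn9*, *Mcm3* and *E2f1* are highest in S, *Pclaf* and *Tk1* stay near the S level in G2M, *Ccnd1* is lowest in G2M, *Pik3r3* is highest in G1, and *H2ax*, *Ccnb1*, *Plk1* and *Arl6ip1* are highest in G2M.

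Among the genes lower in S cells than in G1, *Pik3r3* had the smallest p. *Pik3r3* (chr4:116221618-116303056), a regulatory subunit of PI3 kinase, stood at 163, 24.2 and 49.3 CPM and at 201, 46.3 and 55, which gave -2.34 ± 0.24 against G1 (adjusted p = 4.48e-08). *Mxd4*, a partner of MAX that opposes MYC, stood at 257, 85.8 and 28.9 CPM and at 254, 73.8 and 60.9, with -1.70 ± 0.20. *Igfbp5*, which binds insulin-like growth factors, stood at 211, 79.2 and 42.5 CPM and at 188, 68.6 and 43.2, with -1.44 ± 0.20. For these 3 genes, picked by p in the same sums, each G1 sum lay above every S and G2M sum. *Sesn3*, a stress-induced sestrin, stood at 226, 106 and 110 CPM and at 229, 97.8 and 100, with -1.16 ± 0.18, and *Gstm1*, a glutathione transferase, at 524, 282 and 243 CPM and at 430, 240 and 214, with -0.87 ± 0.13. *Mt1*, a metallothionein, gave -0.62 ± 0.10.

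Mitochondrially encoded mRNAs were lower in S cells than in G1 in 10 of 13 cases with 0 higher (median -0.31), and 0 of 13 were called against G2M (median 0.02). *mt-Cytb*, of complex III, stood at 20896, 17180 and 17405 CPM and at 21858, 16037 and 17704, with -0.36 ± 0.05 against G1 (adjusted p = 1.67e-05). *mt-Co2*, of complex IV, gave -0.36 ± 0.05 and the ribosomal RNA *mt-Rnr2* -0.33 ± 0.05. Without the 11 cells at 20% or more, 10 of 13 were lower than in G1 and 0 higher. The count was 3 without the plate block, 6 with DESeq2 and 0 to 2 with any 1 sum left out (0 without the S sum of plate 2, 1 without the G1 sum of plate 1 and 2 without each of the other 4), with medians from -0.28 to -0.33. Of 81 cytosolic ribosomal protein genes tested, 4 were lower than in G1 and 5 lower than in G2M, with 0 higher (medians -0.08 and -0.13). For comparison, 5.26% of all tested genes outside the score lists were lower than in G1 and 2.2% lower than in G2M. Of 21 lipid genes tested, 2 were lower than in G1, *Scd2* and *Dbi*, and 2 were lower than in G2M, *Scd2* and *Scd1*, with 0 higher (medians -0.04 and -0.15). With library size in place of TMM, the medians against G1 were 0.0006 for the ribosomal and 0.04 for the lipid genes.

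Of 18 markers of neural stem and progenitor cells tested, *Nes* was higher in S than in G1 and 5 were lower, *Fabp7*, *Ptprz1*, *Olig2*, *Slc1a3* and *Ednrb* (median -0.23), and 0 were called against G2M (median 0.10). *Nes*, nestin, stood at 291, 354 and 289 CPM and at 207, 319 and 218, above G1 by 0.44 ± 0.14. *Slc1a3*, the glial glutamate transporter, stood at 1620, 1168 and 1278 CPM and at 1751, 1350 and 1219, with -0.42 ± 0.09 against G1. *Sox2* had between 8 and 32 counts per sum and *Hes5* between 0 and 18, so both were measured weakly here. Of 5 astrocyte markers tested, 3 were lower than in G1 and 1 was higher than in G2M (medians -0.37 and 0.17). That one was *Apoe*, the apolipoprotein E gene, at 531, 396 and 167 CPM and at 342, 189 and 114, with -0.61 ± 0.14 against G1 and 1.03 ± 0.17 against G2M (adjusted p = 0.000106). *Olig1*, an oligodendrocyte lineage factor, stood at 2939, 2299 and 1652 CPM and at 3009, 2462 and 1767, with -0.32 ± 0.07 and 0.48 ± 0.07. Of 5 neuroblast and neuron markers tested, *Sox11* was higher and *Sox4* lower than in G1, and 0 were called against G2M. Of 8 immediate early and stress genes, *Fos* was lower than in G1 and higher than in G2M. Of 14 genes among those that the study names for low and high PLIN2-GFP NSPCs, which were picked on these cells, 7 were lower than in G1 and 0 higher (median -0.28), and 0 were called against G2M. Microglial and endothelial markers were near the floor, with 2 of 10 in the table and 30.5 counts over all cells.

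Across all cells, genes were also followed along the deposited S.Score. Spearman correlations are given per plate as a description, since cells of a plate share a library and differ in depth. Among 2057 genes with a mean of at least 1 UMI per cell and outside the score lists, the highest were *Hist1h2ap* (0.60 over 179 cells of plate 1 and 0.71 over 125 cells of plate 2), *Hist1h2ao* (0.55 and 0.64), *Dek* (0.54 and 0.59), *Dnmt1* (0.54 and 0.58) and *Pclaf* (0.50 and 0.61). The lowest were *Pik3r3* (-0.51 and -0.39), *Mxd4* (-0.45 and -0.36), *mt-Co2* (-0.34 and -0.30), *Ndfip1*, an adaptor of ubiquitin ligases (-0.30 and -0.29), and *Ftl1*, the ferritin light chain (-0.27 and -0.33). At 5000 UMIs per cell the value for *Hist1h2ap* was 0.61 and 0.70. Among the S cells alone, the number of UMIs itself had a correlation of 0.57 and 0.26 with S.Score, and of 0.04 and 0.05 with G2M.Score.

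The S cells differed among themselves in their histone mRNAs. Replication-dependent histones took a median of 0.137% of the UMIs of an S cell on plate 1 (from 0.00988% to 1.23%) and 0.391% on plate 2 (from 0.0563% to 0.923%), against 0.0549% and 0.0426% in G1 and 0.122% and 0.133% in G2M. Over the S cells this share had a Spearman correlation of 0.46 and 0.46 with S.Score and of 0.63 and 0.67 with G2M.Score (41 and 36 cells). At 5000 UMIs per cell these were 0.35 and 0.41 with S.Score and 0.72 and 0.64 with G2M.Score. The sums of the S cells above and below the median G2M.Score of their plate, a split chosen after seeing the data, are given as CPM without TMM and with no test. Histones stood at 6120 CPM above the median and 1695 below it on plate 1, and at 5967 and 2575 on plate 2. *Hist1h2ap* stood at 3506 and 725 CPM, and at 3186 and 1130. *Ccna2* stood at 79.3 and 29.99 CPM, and at 92.8 and 33.1, and *H2ax* at 250 and 71.0, and at 225 and 107. In each of these the S cells with the greater G2M.Score had the higher level on both plates.

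The replication machinery together stood at 3732 CPM above and 3089 below the median G2M.Score on plate 1, and at 3914 and 3271 on plate 2. *Mcm3* stood at 141 and 124 CPM, and at 146 and 149, and *E2f1* at 88.1 and 69.6, and at 60.6 and 89.2. *Tk1* stood at 291 and 107 CPM, and at 371 and 225. Median UMIs were 9933 above and 12177 below the median G2M.Score on plate 1, and 15168 and 15611 on plate 2. Along the S.Score split, *Mcm3* stood at 157 CPM above and 89.9 below the median on plate 1, and at 177 and 111 on plate 2, and the histones at 4836 and 2189, and at 5102 and 3100. On plate 1 the cells above the median S.Score had a median of 14754 UMIs and those below it 8161, whose part in these levels was not tested.

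**Figure D4:**
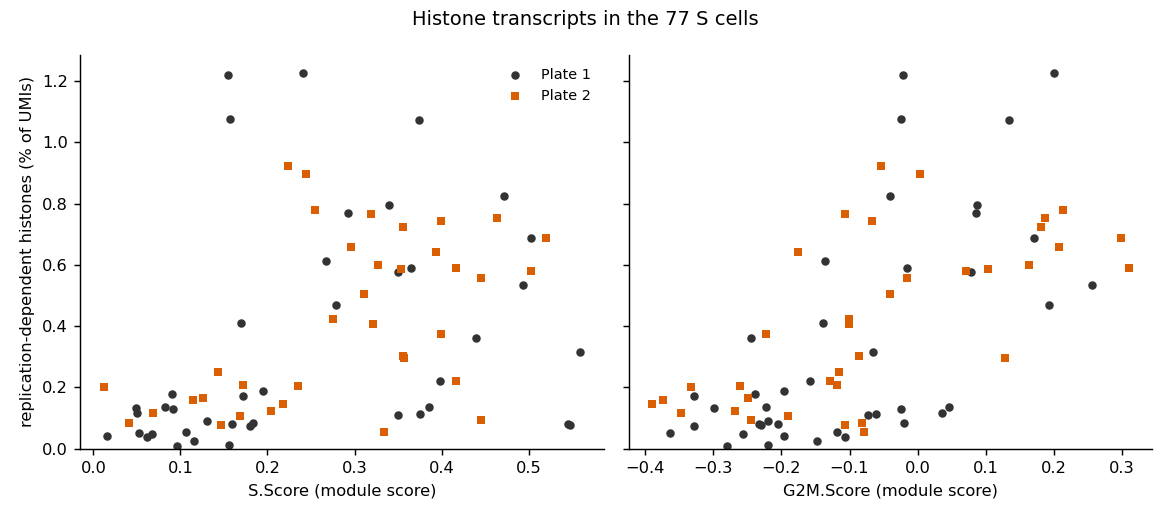
Each point is 1 of the 77 S cells, with the share of its UMIs from replication-dependent histones in percent on the y axis (from 0) and its S.Score (left) or G2M.Score (right) on the x axis, circles for plate 1 and squares for plate 2. The share rose with G2M.Score, with Spearman correlations of 0.63 on plate 1 and 0.67 on plate 2. The lowest shares, 0.00988% on plate 1 and 0.0563% on plate 2, lie at G2M.Scores of -0.280 and -0.0787, and the highest is 1.23%.

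The study was made to compare low and high PLIN2-GFP NSPCs, and S cells were found in both categories. On plate 1, 21 of 95 low (22.1%, 95% exact binomial interval 14.2% to 31.8%) and 20 of 84 high PLIN2-GFP cells (23.8%, 15.2% to 34.3%) were in S. On plate 2 these were 18 of 72 (25.0%, 15.5% to 36.6%) and 18 of 53 (34%, 21.5% to 48.3%). These intervals are for counting error alone. High minus low came to 1.71 points on plate 1 and 8.96 on plate 2, on average 5.33, with p = 0.667 in a two-sided exact permutation test over the 4 shares, whose smallest possible p is 0.333. That test exchanges labels across plates, and with labels exchanged only within plates p = 0.5 (exact permutation test), the smallest that 2 plates allow. When the phases were scored again at 5000 UMIs per cell, the differences were -3.06 and 7 points.

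Within the S cells, high PLIN2-GFP cells had higher levels of 35 of 5016 genes outside the score lists (0.698%) and lower levels of 29 (0.578%), together 1.28%, and 61 of these 64 had the same direction on both plates. The 4 sums held from 186088 to 306646 UMIs, and the block leaves 1 residual degree of freedom. With library size in place of TMM, 50 were higher and 21 lower. DESeq2 called 0, while edgeR gave 442 genes an unadjusted p under 0.05. After thinning 10 genes were called, without the plate block 9, and with any 1 sum left out 7 to 31. On both plates low and high cells lay in different rows of wells, with 0 rows shared, so category and row cannot be told apart.

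*Slc4a4*, a sodium bicarbonate cotransporter, had 30 counts in low and 117 in high S cells of plate 1 and 56 and 147 on plate 2, which is 185 and 461 CPM, and 222 and 516. The log2 fold change was 1.26 ± 0.21 (adjusted p = 6.88e-06). *Hes1* (chr16:30064384-30067796), a repressor that acts downstream of Notch, had 9 and 56 counts and 21 and 67, or 55.6 and 221 CPM and 83.1 and 235, higher in high PLIN2-GFP S cells by 1.68 ± 0.30 (adjusted p = 1.58e-05). It was detected in 5 of 21 low and 17 of 20 high S cells of plate 1, and in 9 of 18 and 15 of 18 on plate 2. The low and high S cells differed in depth, with medians of 8902 and 14672 UMIs on plate 1 and 15168 and 15611 on plate 2. At 5000 UMIs per cell, *Hes1* was detected in 3 of 16 low and 11 of 18 high S cells of plate 1, and in 6 of 17 and 9 of 18 on plate 2. *Anxa3*, an annexin, had 3 and 40 counts and 6 and 31. For these 3 genes each high sum lay above both low sums. They were picked by p in these same sums, so the separation is only a description.

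*Igfbp2*, which binds insulin-like growth factors, stood at 957 and 1580 CPM in low and high S cells of plate 1 and at 851 and 1565 on plate 2, up by 0.81 ± 0.14. *Slc1a3* stood at 907 and 1513 CPM, and at 1120 and 1769, up by 0.69 ± 0.14. Of the 5 astrocyte markers tested, 3 were higher in high PLIN2-GFP S cells, *Apoe*, *Aldoc* and *Aldh1l1*, and 0 lower, with a median of 1.00 against -0.01 over all genes. The other 6 of 11 did not pass the filter on low counts. *Aldoc* and *Igfbp2* are also among the genes that the study names, which were picked on these cells, so their calls are not independent evidence. Of 15 NSPC markers tested, 3 were higher, *Hes1*, *Slc1a3* and *Ednrb*, and 0 lower (median 0.05).

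Lower in high PLIN2-GFP S cells were *Basp1* (chr15:25363277-25413764), a membrane protein of growing axons, at 605 and 177 CPM and at 415 and 137, with -1.69 ± 0.22 (adjusted p = 9.52e-11). *Tuba1a*, a tubulin, stood at 889 and 721 CPM, and at 938 and 414, with -0.74 ± 0.16. *Gm28661* and *Gm28438* also fell, and both are annotated as unprocessed pseudogenes on chr1, so reads from related genes cannot be told apart. *Pcdhgc4*, a clustered protocadherin that shares its last exons with its neighbours, fell by 1.65 on the log2 scale. *Plin2* had 4 and 14 counts on plate 1 and 4 and 14 on plate 2, a log2 fold change of 1.38 ± 0.64 with an adjusted p of 0.464, and the reporter's own transcript can add to it. Of the lists of cell cycle genes, none had more than 1 member called in either direction. Of 32 replication machinery genes tested, 0 were higher and 1, *Rnaseh2b*, was lower (median -0.24).

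Whether the difference between the categories was itself different in S cells was tested with 8 sums, S cells and all other cells by category and plate, a test added after seeing the data. The other cells pool G1 and G2M, whose mix differed between the categories on plate 1. The difference was called for 5 of 6763 genes (0.0739%), with 422 of all 6860 at an unadjusted p under 0.05. In this fit *Hes1* was higher in high PLIN2-GFP cells by 1.65 ± 0.29 in S and gave -0.20 ± 0.19 in the other cells, a difference of 1.85 ± 0.35 (adjusted p = 0.0247). Its levels in low and high cells outside S were 188 and 140 CPM on plate 1 and 149 and 157 on plate 2, and those in S were 51.8 and 207, and 79.0 and 221. The low PLIN2-GFP S cells thus had the lowest level on both plates. The other 4 were *Calm2*, *Gm28661*, *Hist1h2ao* and *Mt1*. DESeq2 called 0 genes in this test, and without the plate block 0 were called.

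For *Slc1a3*, *Anxa3*, *Igfbp2*, *Slc4a4* and *Basp1* the difference between S and other cells was not called, with adjusted p-values of 0.273, 0.179, 0.685, 0.443 and 0.845. *Basp1* was lower in high PLIN2-GFP cells outside S as well, with -1.05 ± 0.22 against -1.67 ± 0.25 in S.

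**Figure D5:**
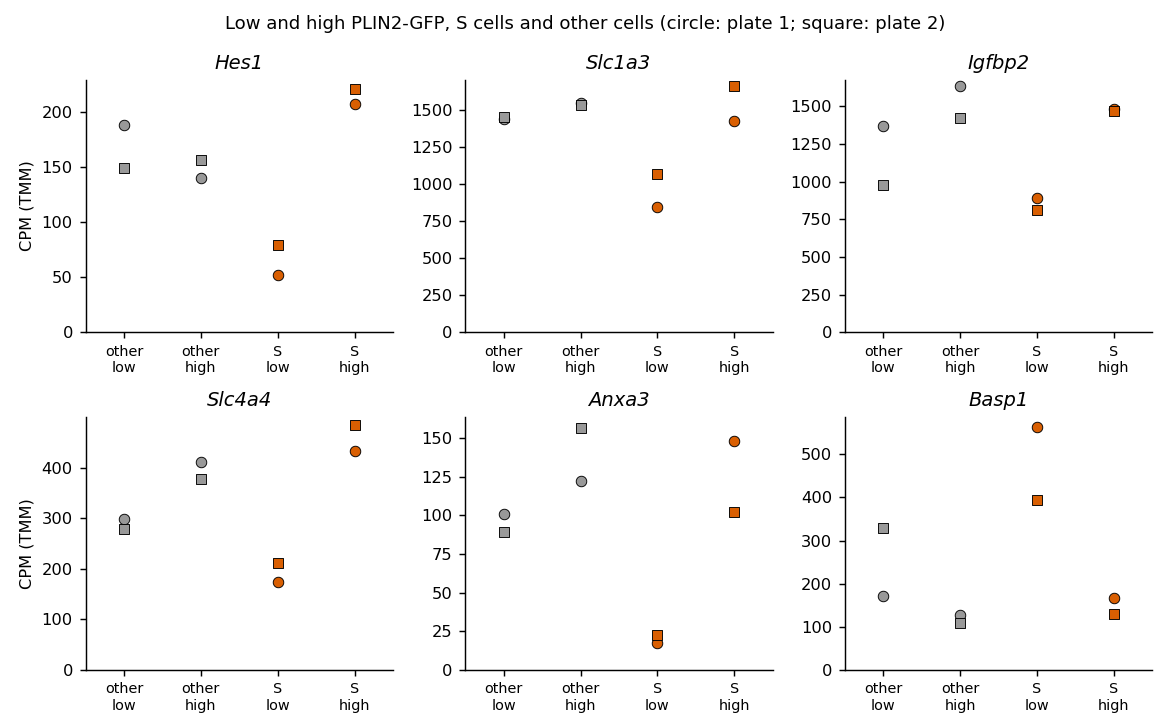
TMM-scaled CPM (linear y axes from 0) of 6 genes in the 8 sums of low and high PLIN2-GFP NSPCs, grey for cells outside S and orange for S cells, circles for plate 1 and squares for plate 2; no error is drawn because each point is 1 sum. *Hes1* lies at 51.8 and 79.0 CPM in low S cells and between 140 and 221 in the other 6 sums.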

How the data were processed

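Single NSPCs of 2 plates were sequenced by SORT-seq. Per the authors' methods, reads were aligned to GRCm38 with Salmon and UMIs demultiplexed into estimated counts per gene and cell (15046 genes in 304 cells, 87.1% of values above 0 whole within 1e-06). The deposited per-cell table gives the authors' S.Score, G2M.Score and doublet score, phase, total counts and percent of mitochondrial counts, and, as deposited, the fraction of ribosomal protein counts in each cell (not used in a result). Poly(A) priming undercounts histone mRNAs without a poly(A) tail. Per the methods, doublets were removed before deposit.

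Estimated counts were summed per plate and phase, rounded and tested with edgeR 4.0.16 (quasi-likelihood test, TMM, filterByExpr, plate as block, Benjamini-Hochberg adjustment, adjusted p under 0.1), with DESeq2 1.42.0 as an alternative, in R 4.3.3. Standard errors are the log2 fold change over the square root of F. Plates are shared batches, and deviations of same-plate sums correlated at 0.206, 0.171 and 0.117. Phases were scored again with Seurat 5.3.0. Genes in the lists could be named, and outside them the 10 called genes with the smallest p per direction (5 for high against low) that kept 1 direction on both plates, and the 5 with the highest and lowest correlation with S.Score. Some genes that the rule names are not reported here. The members and lists were chosen with earlier results of these data known. The fits were tested on simulated data with known changes.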

Additional observations from a re-analysis of the deposited data

Results flagged for a closer look

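For 5 genes the difference between high and low PLIN2-GFP NSPCs was itself different in S cells and in the other cells, by the interaction term of edgeR's quasi-likelihood test with Benjamini-Hochberg adjustment. As log2 differences, these were 1.85 for *Hes1* (adjusted p = 0.0247), -1.23 for *Calm2*, a calmodulin gene (adjusted p = 0.0429), -1.43 for the pseudogene *Gm28661* (adjusted p = 0.0429), -0.94 for *Hist1h2ao* (adjusted p = 0.0453) and 0.75 for *Mt1* (adjusted p = 0.0457). *Calm2* gave -0.79 in S cells and 0.44 in the others. For *Hist1h2ao* and *Mt1* the difference between the categories was called outside S, at 0.71 and -0.51, and not in S, at -0.23 and 0.24. *Hist1h2ao* shares reads with near-identical copies. The cells outside S pool G1 and G2M, and on plate 1 these held 49 low and 32 high cells in G1 and 25 low and 32 high in G2M. Whether this mix had a part in the differences outside S was not tested.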

How the results depend on the processing

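The plate was a block, since each plate is a shared batch. Without the replicate block, 370 genes were called against G1 in place of 894, 119 against G2M in place of 296, 9 for high against low PLIN2-GFP within S in place of 64, and 0 in the test of the difference between S and other cells in place of 5. DESeq2 called 149, 42, 0 and 0. Thinning to 5000 UMIs gave 321, 117 and 10. Phases set from part of the UMIs gave 389 against G1 and 135 against G2M, high PLIN2-GFP cells alone 298 and 141, and low cells alone 579 and 131. A minimum of 50 counts in 2 sums gave 545 against G1. Within S, no filter on low counts gave 29, equal weight per cell 27 and an adjusted p under 0.05 gave 37. Leaving out any 1 sum, which also removes the plate term, gave 200 to 415 against G1 (for plates 1 and 2, 200 and 265 without G1, 284 and 207 without S, 414 and 415 without G2M), 75 to 141 against G2M (135 and 141, 90 and 75, 83 and 80 in that order), 7 to 31 within S (10 and 31 without the low sum, 13 and 7 without the high sum) and 0 to 1 for the difference. The test of that difference, its alternatives, the limit of 20% mitochondrial counts, the permutation within plates, the equal-depth counts of *Hes1* and the splits of S cells were chosen after seeing the data.

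For 2 differences that were not called, the direction turned. *Pclaf* against G2M was -0.0589 in high PLIN2-GFP cells alone. *Tk1* against G2M was 0.0288 with cells weighted equally, 0.14 in low PLIN2-GFP cells alone, 0.17 without the S sum of plate 1 and 0.13 without the G2M sum of plate 2. Of the other single genes with a printed fold change none turned. Calls were less stable than directions. Among 86 printed fold changes, 31 lost their call with DESeq2 and 21 without the replicate block. Over 1006 recomputed values, those with a sum left out not counted, 98 lost a call and 3 gained 1. Medians of several lists turned, among them the astrocyte markers against G2M (-0.12 in low cells alone), the NSPC markers against G2M (-0.01 with cells weighted equally), the replacement histones against G1 (-0.0081 without the G1 sum of plate 1) and the mitochondrial mRNAs against G2M (-0.07 with cells weighted equally). The causes were not tested. With 2 plates of 1 line, p-values do not cover animals or lines, and genes with few counts per sum could differ without being called.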

Other observations

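CCAAT-type letters stood in the promoters of 27 of the 30 replication-dependent histone genes found in the table (90.0%) and CHR-type letters in 13 (43.3%), beside 43.2% and 13.5% of the tested genes. E2F-type letters stood in 13.3%. These shares were not tested.

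Of 14 genes among those that the study names, 4 were higher in high PLIN2-GFP S cells, *Igfbp2*, *Aldoc*, *Trim9* and *Chst2*, and *Pik3r1* was lower. The list was picked on these cells, so it is not independent evidence of its direction. Of 81 cytosolic ribosomal protein genes, 0 were higher and 3 were lower, *Rpl23a*, *Rps23* and *Rpl19*. Over all tested genes outside the score lists, 0.698% were higher and 0.578% lower in this comparison.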
